A study of Mus musculus with 12 samples.

Results

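The dystrophin glycoprotein complex was followed here through 8 of its genes: Dmd, Dag1, Sgca, Sgcb, Sgcd, Sspn, Sntb1 and Dtna. They are 8 of the 19938 genes that the arrays measured with a transcript cluster of their own. A transcript cluster is the set of probes that stands for a gene on a whole-transcript array. The genes were chosen by name, with earlier results of these data known, and each had 1 cluster annotated to its symbol alone.

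RNA came from C2i-Myog cells, a mouse line made from C2C12 myoblasts in which doxycycline induces a Flag-tagged copy of myogenin (Myog), which drives muscle differentiation as a transcription factor. All 4 groups carried this transgene and were grown with 10% fetal calf serum, and, by the treatment protocol, all were differentiated for 48 h in medium holding 1% horse serum, with 10 µg/mL each of insulin and transferrin. The control cells had neither agent, the Dox cells had doxycycline at 0.2 µg/mL, the SB cells had 10 µM SB203580, which blocks p38α and p38β MAP kinases, and the SB+Dox cells had both. Each group held 3 arrays, numbered 1 to 3 by the sample titles. The series set out to separate what Myog and what p38 signalling contribute to differentiation. All arrays came from 1 stable line, and no group had doxycycline without the transgene, so the effect of the drug and that of exogenous Myog cannot be told apart. The arrays labelled control carry no statement of their own on differentiation, only the common protocol. Nothing in the labels states that the replicates are independent cultures, so the p-values reflect the spread between these arrays, which may be technical.

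In skeletal muscle the complex links the actin cytoskeleton inside the fibre to laminin outside it. Dystrophin binds actin and β-dystroglycan, α-dystroglycan binds laminin through its sugar chains, and the sarcoglycans and sarcospan form a subcomplex in the membrane that steadies this link. Syntrophins and dystrobrevins sit on the cytoplasmic side and hold signalling proteins. In humans, loss of dystrophin causes Duchenne muscular dystrophy, and loss of a sarcoglycan causes a form of limb-girdle muscular dystrophy. Myog and its relatives bind E-boxes, short DNA elements with the letters CANNTG.

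Because Sgca passed the test under the inhibitor and Sgcb and Sgcd did not, the promoters of these 3 sarcoglycan genes are set side by side. Each sequence is the 250 bases before the start of a RefSeq transcript on GRCm38.p6, read 5′ to 3′ on the gene's strand, with E-boxes in capitals. The Sgca window is chr11:94976328-94976577, the Sgcb window chr5:73647738-73647987 and the Sgcd window chr11:47379326-47379575, all on the minus strand.
Sgca: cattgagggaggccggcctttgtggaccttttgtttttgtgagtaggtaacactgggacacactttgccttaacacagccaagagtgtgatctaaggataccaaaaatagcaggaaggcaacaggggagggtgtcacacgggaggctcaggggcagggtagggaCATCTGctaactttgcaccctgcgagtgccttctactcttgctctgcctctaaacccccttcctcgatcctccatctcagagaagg
Sgcb: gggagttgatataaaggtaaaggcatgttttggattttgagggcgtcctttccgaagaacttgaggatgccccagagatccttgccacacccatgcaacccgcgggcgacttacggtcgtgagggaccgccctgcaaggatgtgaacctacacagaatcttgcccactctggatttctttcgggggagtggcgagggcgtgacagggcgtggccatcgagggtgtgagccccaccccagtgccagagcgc
Sgcd: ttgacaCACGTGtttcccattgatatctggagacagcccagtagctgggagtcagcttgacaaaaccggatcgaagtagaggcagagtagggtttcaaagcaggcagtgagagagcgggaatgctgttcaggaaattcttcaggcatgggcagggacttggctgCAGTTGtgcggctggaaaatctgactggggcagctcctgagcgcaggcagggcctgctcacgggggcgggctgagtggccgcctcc
The Sgca window held 1 E-box, CATCTG, which begins 86 bases before the start. The Sgcb window held none. The Sgcd window, whose start lies inside the span of the gene, held CACGTG at 244 and CAGTTG at 86 bases before the start. An E-box reads the same pattern on both strands, and 66.2% of the 32851 RefSeq promoter windows of this length held at least 1. The binding motif of MEF2, another muscle transcription factor, was searched on both strands and was present in none of these 3 windows and in 1.69% of all windows. The promoter table matched 6 of the 8 genes by symbol, and has no entry for Sntb1 and Dtna. Among the matched windows not printed here, that of Dmd at chrX:82948620-82948869 held a MEF2 match and the others held none.

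Values are log2 RMA signals, so a difference of 1 is a doubling. They ran from 0.50 to 13.17 over the table, array medians lay between 4.86 and 5.06, and replicates of a group correlated at 0.989 to 0.996 across clusters, the lowest value being between SB arrays. The test throughout was limma over 21789 clusters with 1 gene symbol, with Benjamini-Hochberg adjustment within each comparison and a call at adjusted p under 0.05. Intervals are 95% intervals of the log2 difference, SE is its standard error, and n was 3 arrays per group. No background was measured, and a fold against a dim group may be understated. In such bulk RNA fewer cells of a type and less RNA per cell cannot be told apart.

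The labelled cell type was checked through marker genes, as a description, since the probes of different genes are not on a common scale. The 10 skeletal myoblast and myotube markers had a mean signal per array of 10.02 to 10.37 in the control group and 10.12 to 10.33 in the Dox group. That mean was 9.26 to 9.82 in the SB group and 9.95 to 10.15 in the SB+Dox group. The induced gene, Myog, is among the 10. The means of the smooth muscle markers lay between 6.86 and 7.16 on every array. Within that list Acta2 averaged 11.87 and Smtn 8.20 in control, and Myh11 averaged 4.81. The means of adipocyte, osteoblast, fibroblast, endothelial and macrophage markers lay between 3.97 and 4.74. Single genes of these lists were higher, with the fibroblast marker Twist2 at 6.53 and the adipocyte marker Pparg at 6.25 in control. The listed Cfd, Bglap and Runx2 had no cluster of their own. Myog itself read 9.66, 10.18 and 9.89 on the control arrays, 10.39, 10.30 and 10.40 on the Dox arrays, 6.93, 7.96 and 8.21 on the SB arrays and 8.10, 8.23 and 8.68 on the SB+Dox arrays. Its difference was 0.46 in Dox against control (adjusted p = 0.467) and 0.64 in SB+Dox against SB (adjusted p = 0.157), and neither passed in limma. With both agents Myog stayed 2.98-fold below control (-1.58, adjusted p = 0.00162). Its probes may read the endogenous transcript, the transgene or both, so these arrays do not establish how far the transgene was induced.

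Sgca was the one complex gene called lower with SB203580, and it was called both without and with doxycycline. Some other complex genes also read lower with the inhibitor, but none of them passed the test. Sntb1 and Dtna were raised when doxycycline was added to inhibited cells. Dag1 and Dtna were raised by doxycycline alone, and Sspn was higher with both agents than with doxycycline alone. These calls were fragile: of 12 fits that each left out 1 array, that of Dag1 held in 4, that of Dtna in 2 and that of Sspn in 8. Dmd, Sgcb and Sgcd passed the test in no comparison. The plots of the 8 genes by array and of their changes show these patterns.

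**Figure D1:**
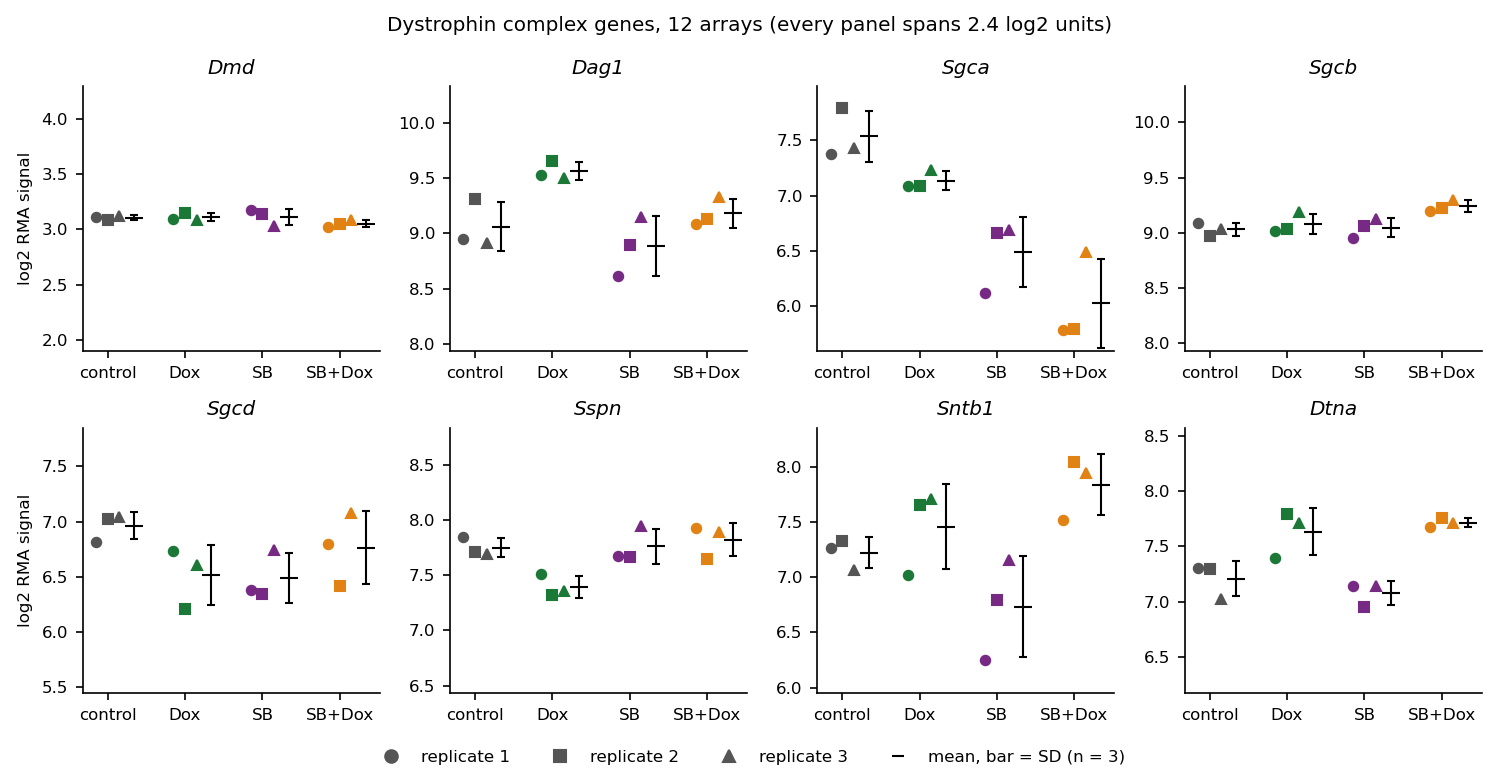
Log2 RMA signal (vertical axis) of the 8 complex genes in the 4 groups (horizontal axis), with 1 point per array, the symbol giving the replicate number, and the group mean with its SD (n = 3) to the right of the points. All 3 SB and all 3 SB+Dox arrays lie below every control and Dox array for Sgca, while the Dmd points stay between 3.02 and 3.17.

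**Figure D2:**
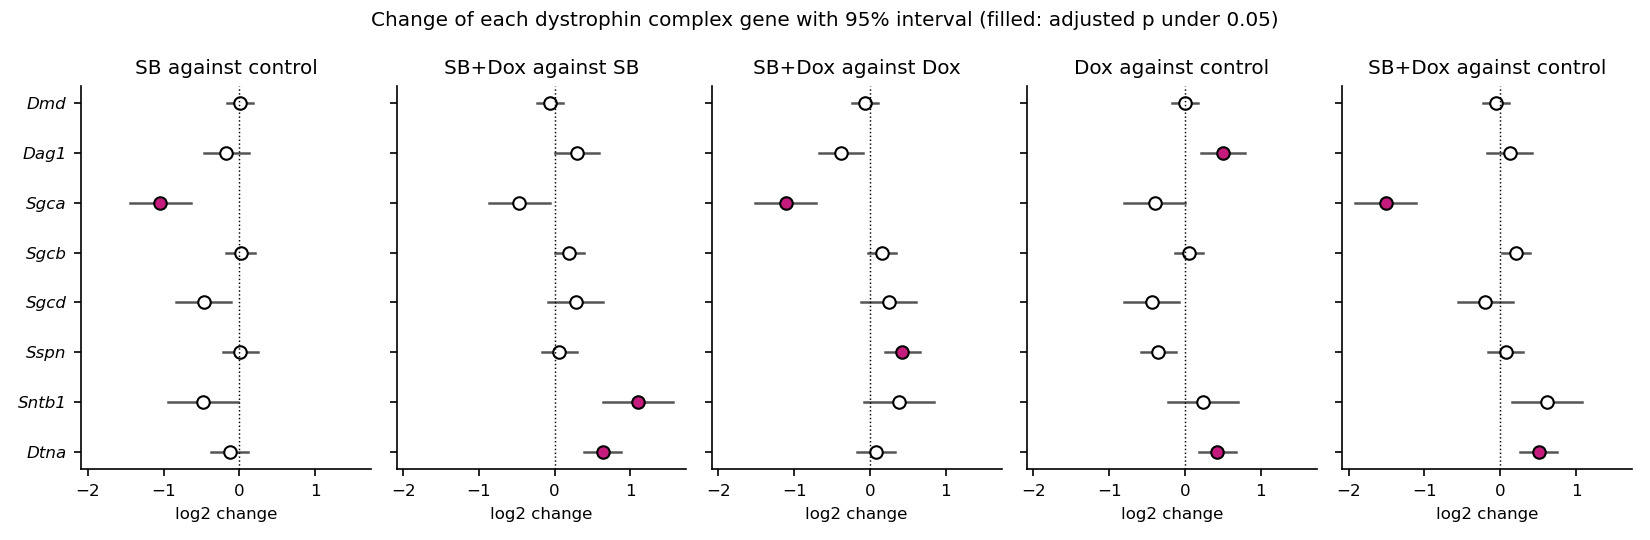
Log2 change (horizontal axis) of each complex gene (vertical axis) in the 5 comparisons of groups, with bars for the 95% interval and filled points for an adjusted p under 0.05. Sgca lies at -1.05, -1.11 and -1.51 in the 3 comparisons where it is filled, and Sntb1 lies at 1.10 in SB+Dox against SB.

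Counted as a list, 0 of the 8 genes were raised and 1 was lowered in SB against control, where 2.51% of all clusters were raised and 3.87% lowered. In SB+Dox against SB, 2 were raised and 0 lowered, against 4.4% and 2.71% of all clusters. SB+Dox against Dox gave 1 raised and 1 lowered, against 6.97% and 3.43%. In Dox against control, 2 were raised and 0 lowered, against 1.43% and 3.88%, and in SB+Dox against control 1 was raised and 1 lowered, against 2.84% and 2.42%. The median log2 change of the 8 genes was -0.151 in SB against control (0.028 over all clusters) and 0.235 in SB+Dox against SB (-0.042). It was 0.121 in SB+Dox against Dox (-0.025), 0.027 in Dox against control (0.006) and 0.098 in SB+Dox against control (-0.016). These comparisons share groups of arrays, so they are not independent. The list was chosen with earlier results of these data known, so its counts and medians are not independent evidence. The split of all called clusters in SB+Dox against SB was 959 higher and 591 lower, and it became 1302 and 415 when each array was centred on its median and 851 and 800 after quantile normalization.

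Dmd encodes dystrophin, the actin-binding rod of the complex. Its cluster read 3.11, 3.08 and 3.12 on the control arrays, 3.09, 3.15 and 3.09 on the Dox arrays, 3.17, 3.14 and 3.03 on the SB arrays and 3.02, 3.05 and 3.08 on the SB+Dox arrays. These 12 values spanned 0.153, and all lay under 4.10, the 25th percentile of the tested clusters' mean signals. The difference between SB and control was 0.01 with an interval of -0.17 to 0.18 (adjusted p = 0.985), and a change in the transcript was not detectable at so low a signal. Dmd is the longest of the 8 genes, with a RefSeq span of 2390387 bases against 13551 for Sgca, the shortest.

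Dag1 encodes the precursor that is cut into α- and β-dystroglycan. It read 8.95, 9.31 and 8.92 on the control arrays, 9.53, 9.65 and 9.50 on the Dox arrays, 8.61, 8.89 and 9.15 on the SB arrays and 9.09, 9.13 and 9.33 on the SB+Dox arrays. All Dox arrays lay above all control arrays, whereas SB and control arrays overlapped. Doxycycline alone raised Dag1 1.42-fold (log2 difference 0.50, SE 0.14, interval 0.21 to 0.80, adjusted p = 0.0474). This call was lost when any 1 of 8 arrays was left out, namely control 1 or 3, any Dox array, SB 2, or SB+Dox 1 or 2, and over all 22 alternatives the adjusted p ran from 0.00978 to 0.197. The SB+Dox arrays lay below all Dox arrays, with a difference of -0.38 that did not pass (adjusted p = 0.105), and the doxycycline difference with the inhibitor was 0.30 (adjusted p = 0.235).

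Sgca encodes α-sarcoglycan, the sarcoglycan restricted to striated muscle. It read 7.38, 7.80 and 7.44 on the control arrays, 7.09, 7.09 and 7.23 on the Dox arrays, 6.12, 6.66 and 6.69 on the SB arrays and 5.79, 5.80 and 6.50 on the SB+Dox arrays. The control mean was 7.54 ± 0.23 (SD, n = 3), the Dox mean 7.14 ± 0.08, the SB mean 6.49 ± 0.32 and the SB+Dox mean 6.03 ± 0.41. Every inhibited array lay below every array without inhibitor. The inhibitor alone lowered Sgca 2.06-fold against control (log2 difference -1.05, SE 0.19, interval -1.45 to -0.64, adjusted p = 0.00343). With doxycycline present the inhibitor lowered it 2.16-fold (-1.11, SE 0.19, interval -1.51 to -0.71, adjusted p = 0.00114). Against control, SB+Dox was 2.85-fold lower (-1.51, SE 0.19, interval -1.91 to -1.11, adjusted p = 2.50e-04). All 3 calls held under each of the 22 alternatives run for them.

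Sgca was not raised by doxycycline in any comparison. Adding doxycycline to inhibited cells gave a further difference of -0.46, with overlapping arrays (adjusted p = 0.171). Without SB+Dox replicate 3, the highest of its group, this difference was -0.70 and passed (adjusted p = 0.0334). In Dox against control the difference was -0.40, with all Dox arrays below all control arrays (adjusted p = 0.348). Of the 10 skeletal muscle markers, 5 were lowered and 1 was raised in SB against control (3.87% and 2.51% of all clusters). In SB+Dox against Dox 3 were lowered and 1 raised (3.43% and 6.97%). Against control, SB+Dox had 3 lowered and 1 raised (2.42% and 2.84%). Myog, the induced gene, is among the 10 and was called lower in each of these comparisons. Of the 5 smooth muscle markers 1 was lowered in SB against control, Acta2 (-0.60, adjusted p = 0.0130). The part of both marker lists in the lower Sgca signal was not tested. SB replicate 1 had the lowest Sgca, Dag1, Sntb1 and Myog signals of the SB group. Without it the Sgca difference from control was -0.86 (adjusted p = 0.0179).

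Sgcb encodes β-sarcoglycan, which forms the core of the sarcoglycan subcomplex together with δ-sarcoglycan. It read 9.09, 8.97 and 9.03 on the control arrays, 9.02, 9.04 and 9.19 on the Dox arrays, 8.96, 9.06 and 9.12 on the SB arrays and 9.19, 9.23 and 9.30 on the SB+Dox arrays. Control, Dox and SB arrays overlapped. The difference between SB and control was 0.02 with an interval of -0.17 to 0.20 (adjusted p = 0.961). All SB+Dox arrays lay above all control arrays, but the difference of 0.21 did not pass (adjusted p = 0.242).

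Sgcd encodes δ-sarcoglycan. It read 6.82, 7.02 and 7.04 on the control arrays, 6.73, 6.21 and 6.61 on the Dox arrays, 6.38, 6.34 and 6.74 on the SB arrays and 6.80, 6.42 and 7.08 on the SB+Dox arrays. Both single treatments lay below all control arrays, and the arrays with both agents overlapped with control. The difference from control was -0.47 in SB (interval -0.83 to -0.11, adjusted p = 0.136) and -0.44 in Dox (interval -0.80 to -0.08, adjusted p = 0.195). In SB+Dox it was -0.20 (adjusted p = 0.666), and none of the 3 passed the test.

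Within an array, the Sgca signal minus the Sgcb signal was lower by 1.06 on average in SB than in control: the lowest and highest differences were -2.83 and -2.40 in SB and -1.71 and -1.18 in control. In SB+Dox these were -3.43 and -2.81, against -1.95 and -1.93 in Dox, so the SB+Dox mean was 1.27 lower. In both comparisons the groups did not overlap, and each gave p = 0.1 in an exact 2-sided permutation test, the smallest that 3 arrays against 3 allow. Dox and control did not overlap either, with a mean difference of -0.45 (exact permutation p = 0.1). The Sgca signal minus the Sgcd signal also separated SB from control, with -0.26 to 0.32 in SB and 0.40 to 0.77 in control (exact permutation p = 0.1). For this difference Dox overlapped with control (mean difference 0.04, exact permutation p = 0.8). These differences describe unequal change of the genes and not their relative amounts, because the probes differ. The genes were set against each other after Sgca had passed on these same arrays and Sgcb and Sgcd had not. The permutation tests therefore add no further support.

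Sspn encodes sarcospan, the small membrane protein that binds the sarcoglycans. It read 7.85, 7.71 and 7.69 on the control arrays, 7.51, 7.32 and 7.36 on the Dox arrays, 7.67, 7.66 and 7.94 on the SB arrays and 7.93, 7.65 and 7.89 on the SB+Dox arrays. The Dox arrays lay below every other array, and the other 3 groups overlapped. With both agents Sspn exceeded its Dox level 1.34-fold (log2 difference 0.43, SE 0.11, interval 0.19 to 0.66, adjusted p = 0.0187). That call was lost without Dox replicate 2 (adjusted p = 0.0768), Dox replicate 3 (0.0712), SB+Dox replicate 1 (0.0892) or SB+Dox replicate 3 (0.0764). The difference between Dox and control was -0.35 and did not pass (adjusted p = 0.0858), though without SB replicate 3 it did (adjusted p = 0.0483).

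Sntb1 encodes β1-syntrophin, an adaptor that binds dystrophin and recruits signalling proteins through its PDZ domain. It read 7.27, 7.33 and 7.06 on the control arrays, 7.02, 7.65 and 7.70 on the Dox arrays, 6.25, 6.79 and 7.16 on the SB arrays and 7.52, 8.04 and 7.94 on the SB+Dox arrays. Its control mean was 7.22 ± 0.14 (SD, n = 3), its Dox mean 7.46 ± 0.38, its SB mean 6.73 ± 0.45 and its SB+Dox mean 7.84 ± 0.28. All SB+Dox arrays lay above all SB and all control arrays, while Dox arrays overlapped with both control and SB+Dox. Doxycycline raised Sntb1 2.15-fold in inhibited cells (log2 difference 1.10, SE 0.22, interval 0.64 to 1.56, adjusted p = 0.00599), and this call held under each of 22 alternatives. Without SB replicate 1 the difference was 0.86 (adjusted p = 0.0293). The difference between SB and control was -0.49 (adjusted p = 0.258), and that between SB+Dox and control was 0.62 (adjusted p = 0.140).

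Dtna encodes α-dystrobrevin, a dystrophin relative that binds both dystrophin and syntrophins. It read 7.30, 7.29 and 7.02 on the control arrays, 7.39, 7.79 and 7.71 on the Dox arrays, 7.14, 6.95 and 7.14 on the SB arrays and 7.68, 7.76 and 7.71 on the SB+Dox arrays. All 6 arrays with doxycycline lay above all 6 without it. Doxycycline raised Dtna 1.55-fold in inhibited cells (log2 difference 0.63, SE 0.12, interval 0.39 to 0.88, adjusted p = 0.00378), a call that held under each of 22 alternatives. It rose 1.34-fold with doxycycline alone (0.43, SE 0.12, adjusted p = 0.0456) and was 1.42-fold above control with both agents (0.51, SE 0.12, adjusted p = 0.0181). The Dox call was lost without any 1 of 10 arrays, that is, all but Dox replicate 1 and SB replicate 3, and its adjusted p ran from 0.0118 to 0.192 over the 22 alternatives. The SB+Dox call did not hold without control replicate 3 (adjusted p = 0.082), SB+Dox replicate 2 (0.0763) or SB+Dox replicate 3 (0.0579), and with every cluster tested (0.059). The inhibitor gave small Dtna differences that did not pass, -0.13 without doxycycline (interval -0.38 to 0.12) and 0.08 with it (interval -0.17 to 0.33).

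Among the skeletal muscle markers, 3 of 10 were raised and 0 lowered in SB+Dox against SB, the comparison in which Sntb1 and Dtna rose. Of all clusters 4.4% were raised and 2.71% lowered there. In Dox against control 0 were raised and 1 was lowered, against 1.43% and 3.88% of all clusters. The part of the markers in these changes was not tested.

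Whether the doxycycline difference depended on the inhibitor was tested as an interaction, which is the SB+Dox minus SB difference less the Dox minus control difference. None of the 8 genes passed (0 of 8, against 0.895% of all clusters), while 3 of 8 had an unadjusted limma p under 0.05, against 11.4% of all clusters. These were Sgcd at 0.72 (adjusted p = 0.223), Sspn at 0.41 (0.292) and Sntb1 at 0.86 (0.262). For Dtna, which rose with doxycycline on both backgrounds, the interaction was 0.21 with an interval of -0.14 to 0.56 (adjusted p = 0.670). For Sgca it was -0.07 with an interval of -0.64 to 0.50 (adjusted p = 0.949).

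Close relatives of the complex genes did not follow them in every comparison. Sntb2, which encodes β2-syntrophin, read 6.61, 6.58 and 6.49 on the control arrays, 6.19, 6.14 and 6.01 on the Dox arrays, 7.20, 7.07 and 7.17 on the SB arrays and 7.36, 7.16 and 7.34 on the SB+Dox arrays. All inhibited arrays lay above all arrays without inhibitor. The inhibitor raised Sntb2 without doxycycline (log2 difference 0.59, SE 0.09, adjusted p = 0.00131) and, by 2.25-fold, with it (1.17, SE 0.09, adjusted p = 1.40e-06). With both agents it exceeded control 1.66-fold (0.73, adjusted p = 2.60e-04). Doxycycline alone lowered it 1.36-fold (-0.44, adjusted p = 0.00852), which failed the test without Dox replicate 3 (adjusted p = 0.0519). Dtnb, which encodes β-dystrobrevin, read 5.49, 5.63 and 5.82 in control and 5.96, 6.04 and 6.14 in SB, without overlap. It was 1.32-fold higher in SB (0.40, adjusted p = 0.0325), but the call was lost under 7 of 22 alternatives, among them leaving out control replicate 1 or 2 or SB replicate 2 or 3, with adjusted p up to 0.157.

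**Figure D3:**
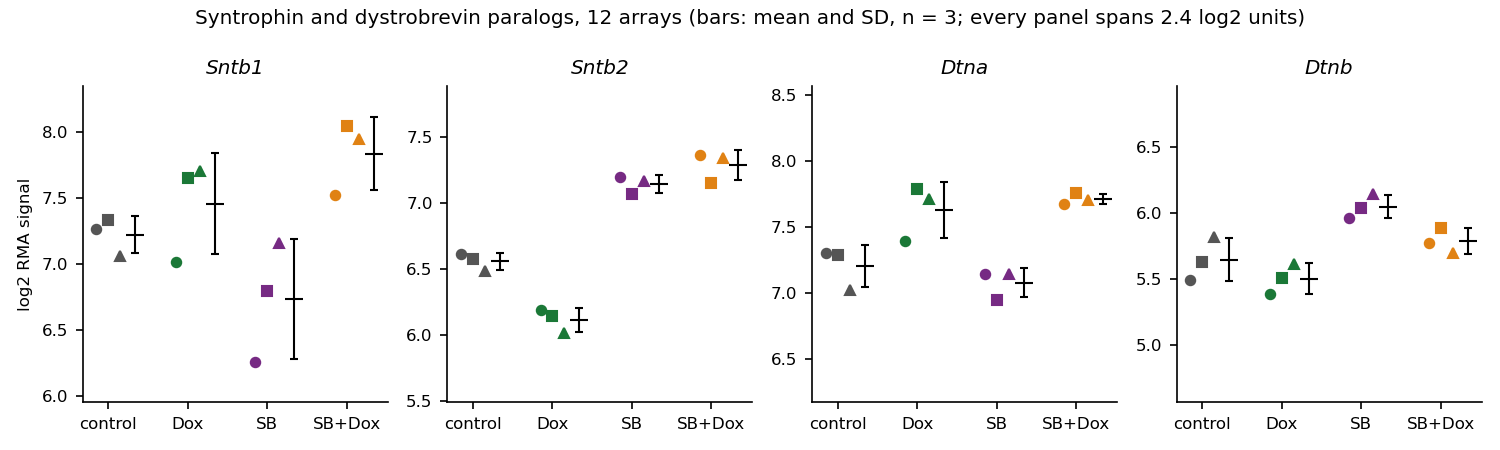
Log2 RMA signal (vertical axis) of the syntrophin genes Sntb1 and Sntb2 and the dystrobrevin genes Dtna and Dtnb in the 4 groups (horizontal axis), 1 point per array, with the group mean and SD (n = 3). Sntb2 is higher in all 6 inhibited arrays, from 7.07 to 7.36, than in the other arrays, and Dtna is higher in all 6 arrays with doxycycline.

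Utrn, which encodes utrophin, the dystrophin relative that can replace it at the membrane, read 7.90, 7.94 and 7.63 in control and 7.11, 7.09 and 7.67 in SB, and was named after its values were seen. The SB arrays 1 and 2 lay below all control arrays and SB replicate 3 lay among them, and the difference of -0.53 did not pass (interval -0.87 to -0.19, adjusted p = 0.0634). Of the 12 other complex members listed, 10 were measured. In SB against control 2 of them were raised and 0 lowered, against 2.51% and 3.87% of all clusters. None passed in SB+Dox against SB (0 raised and 0 lowered), with 3 of 10 at an unadjusted limma p under 0.05, against 20.9% of all clusters. Against Dox, SB+Dox had 1 raised and 2 lowered (6.97% and 3.43% of all clusters). Lowered were Cav3, the muscle caveolin, by 1.40-fold (-0.49, adjusted p = 0.00401), and Sntg1, which encodes γ1-syntrophin, by 1.25-fold (-0.32, adjusted p = 0.0491). The Sntg1 call was lost under 14 of 20 alternatives, among them leaving out any of 9 arrays (all but Dox 2, SB 1 and SB 3), with adjusted p up to 0.234. Its group means of 3.87 and 4.20 were near the 25th percentile of signals. Doxycycline alone raised Cav3 1.32-fold (0.41, adjusted p = 0.0222), which failed the test without control replicate 1 or 3 or Dox replicate 2 (adjusted p up to 0.116 over its alternatives).

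Of 18 listed enzymes that build the laminin-binding sugar of α-dystroglycan, 14 were measured. In SB against control 0 of the 14 were raised and 2 lowered, where 2.51% and 3.87% of all clusters were: B3galnt2, which adds a sugar to the core chain, by 1.39-fold (-0.48, adjusted p = 0.00678), and Rxylt1, a ribitol-phosphate xylosyltransferase, by 1.27-fold (-0.34, adjusted p = 0.0410). Adding doxycycline to inhibited cells raised 3 and lowered 0, against 4.4% and 2.71% of all clusters: Rxylt1 by 1.37-fold (0.46, adjusted p = 0.00732), Gmppb, which makes GDP-mannose, by 1.35-fold (0.44, adjusted p = 0.0190), and B3galnt2 by 1.31-fold (0.38, adjusted p = 0.0235). None passed elsewhere. An unadjusted limma p under 0.05 was reached by 0 of the 14 in SB+Dox against Dox (20.9% of all clusters), 1 in Dox against control (14.6%), 0 in SB+Dox against control (15.8%) and 2 in the interaction (11.4%). The list median was -0.040 in SB against control and 0.148 in SB+Dox against SB. The Rxylt1 call in SB was lost under 11 of 22 alternatives (9 of them leaving out 1 array other than SB 3 or SB+Dox 2 or 3, up to adjusted p = 0.185), and that in SB+Dox against SB without SB+Dox replicate 3 (0.0513). The B3galnt2 and Gmppb calls in SB+Dox against SB were each lost under 6 alternatives, both without SB replicate 2, SB+Dox replicate 1 or SB+Dox replicate 3 and Gmppb also without SB replicate 1, with adjusted p up to 0.117 and 0.0944.

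Among 12 extracellular ligands and matrix partners of dystroglycan, 0 were raised and 3 lowered in SB against control (2.51% and 3.87% of all clusters). Nid1, the laminin-binding nidogen, was 1.67-fold lower (-0.74, adjusted p = 0.00191), Hspg2, which encodes perlecan, 1.65-fold lower (-0.72, adjusted p = 0.00925), and Bgn, the matrix proteoglycan biglycan, 1.51-fold lower (-0.60, adjusted p = 0.00663). The Hspg2 call was lost without SB replicate 2 (adjusted p = 0.0584). Bgn was also lowered in SB+Dox against SB by 1.49-fold (-0.57, adjusted p = 0.00831), against Dox by 1.84-fold (-0.88, adjusted p = 1.94e-04) and against control by 2.25-fold (-1.17, adjusted p = 4.89e-05). It was the 1 ligand called in the first 2 of these. Nid1 fell 1.70-fold with doxycycline alone (-0.77, adjusted p = 0.00130) and was 1.41-fold below control with both agents (-0.50, adjusted p = 0.0274), the latter lost without any control array or without SB+Dox replicate 1 or 2 (adjusted p up to 0.125). The list median was -0.066 in SB against control.

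Costamere and cytoskeletal partners anchor the membrane to the sarcomere beside the complex. They were the longest of the 5 related lists as measured, and held the most calls in SB against control and in SB+Dox against SB. As a share of genes, the sarcolemma and membrane repair list had no fewer in SB+Dox against SB (2 raised and 1 lowered of 9). The costamere list median was -0.340 in SB against control, beside 0.028 over all clusters. Of the 16 costamere genes measured, 0 were raised and 7 lowered there, where 2.51% and 3.87% of all clusters were. The largest were Flnc, which encodes the muscle filamin (1.73-fold lower, -0.79, adjusted p = 0.00264), Sync, which encodes the intermediate filament protein syncoilin (1.63-fold, -0.71, adjusted p = 0.00469), Plec, which encodes the cross-linker plectin (1.62-fold, -0.69, adjusted p = 0.0121), and Vcl, which encodes vinculin (1.55-fold, -0.63, adjusted p = 0.00530). The Plec call was lost without control replicate 1 or 2 or SB replicate 2 (adjusted p up to 0.0741). Adding doxycycline to inhibited cells raised 5 and lowered 0, against 4.4% and 2.71% of all clusters, with a list median of 0.263. Among the 5 were Ank2, an ankyrin, 1.95-fold higher (0.96, adjusted p = 0.00349), and Flnc, 1.78-fold higher (0.84, adjusted p = 0.00201). Tln1, which encodes talin 1, rose 1.66-fold (0.73, adjusted p = 0.00279) and Sync 1.57-fold (0.65, adjusted p = 0.00743). As with Sgca, the skeletal muscle markers moved in the same comparisons, and their part was not tested.

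Of the 16 genes 1 was raised and 2 were lowered in SB+Dox against Dox (6.97% and 3.43% of all clusters). Parvb, which encodes β-parvin, was 1.38-fold higher (0.46, adjusted p = 0.00559). Sync was 1.37-fold lower (-0.45, adjusted p = 0.0446) and Itgb1, the β1 integrin, 1.31-fold lower (-0.39, adjusted p = 0.0273). Doxycycline alone lowered Tln2, which encodes talin 2, by 1.33-fold (-0.41, adjusted p = 0.0484), and Itgb1 was 1.30-fold below control with both agents (-0.38, adjusted p = 0.0497). The Sync call was lost without control 1, Dox 2 or 3, SB 2 or any SB+Dox array (adjusted p up to 0.19). That of Itgb1 against Dox was lost without any Dox array or SB+Dox 1 or 2 (up to 0.111), and that against control without any array of the control, Dox or SB+Dox groups or SB 2 (up to 0.173). The Tln2 call was lost without any control or Dox array, SB 2, or SB+Dox 1 or 2 (up to 0.19).

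Of 10 sarcolemma and membrane repair genes 9 were measured. Trim72, which encodes the repair protein MG53, was lowered by the inhibitor 2.91-fold without doxycycline (-1.54, adjusted p = 0.00137) and 3.47-fold with it (-1.80, adjusted p = 1.89e-04). Dysf, which encodes dysferlin, was lowered 1.87-fold by the inhibitor alone (-0.90, adjusted p = 0.00215). Doxycycline raised it 2.51-fold in inhibited cells (1.33, adjusted p = 2.35e-04) and 2.04-fold in the others (1.03, adjusted p = 7.33e-04). Dysf read 6.29, 6.47 and 6.29 on the control arrays, 7.07, 7.54 and 7.53 on the Dox arrays, 5.48, 5.58 and 5.29 on the SB arrays and 6.47, 6.80 and 7.06 on the SB+Dox arrays, with the SB arrays lowest and the Dox arrays highest. The list gave 0 raised and 2 lowered in SB against control (2.51% and 3.87% of all clusters). In SB+Dox against SB it gave 2 raised and 1 lowered (4.4% and 2.71%). There Cavin4, a muscle caveola protein, was 2.19-fold higher (1.13, adjusted p = 0.0133) and Cav1, which encodes caveolin 1, 1.56-fold lower (-0.64, adjusted p = 0.0210). Both of these calls were lost without SB replicate 1, SB+Dox replicate 2 or SB+Dox replicate 3, with adjusted p up to 0.0729 for Cavin4 and 0.0973 for Cav1.

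Of the 9 repair genes 2 were raised and 2 lowered in SB+Dox against Dox (6.97% and 3.43% of all clusters). In Dox against control it was again 2 and 2 (1.43% and 3.88%). Anxa2, a calcium-dependent membrane-binding annexin, was 1.74-fold above its Dox level with both agents (0.80, adjusted p = 4.89e-05) and fell 1.66-fold with doxycycline alone (-0.73, adjusted p = 2.60e-04). Its relative Anxa1 was 1.35-fold above its Dox level (0.44, adjusted p = 0.0207), and Dysf was 1.52-fold lower there (-0.60, adjusted p = 0.0171). Those calls of Anxa1 and Dysf were lost without Dox replicate 2 or 3 or SB+Dox replicate 1, and Anxa1 also without SB+Dox replicate 3 (adjusted p up to 0.101 and 0.0925). In Dox against control Cav1 was 1.96-fold lower (-0.97, adjusted p = 0.00143) and Trim72 was 1.89-fold higher (0.91, adjusted p = 0.0396). With both agents 0 were raised and 2 lowered against control (2.84% and 2.42% of all clusters). These were Trim72, 1.84-fold lower (-0.88, adjusted p = 0.0487), and Cav1, 1.70-fold lower (-0.76, adjusted p = 0.00899). The Trim72 call in Dox was lost without control 1 or 3, Dox 1 or 2, SB 2 or SB+Dox 2 (adjusted p up to 0.179), and that in SB+Dox without any control or SB+Dox array, Dox 1 or SB 2 (up to 0.195).

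**Figure D4:**
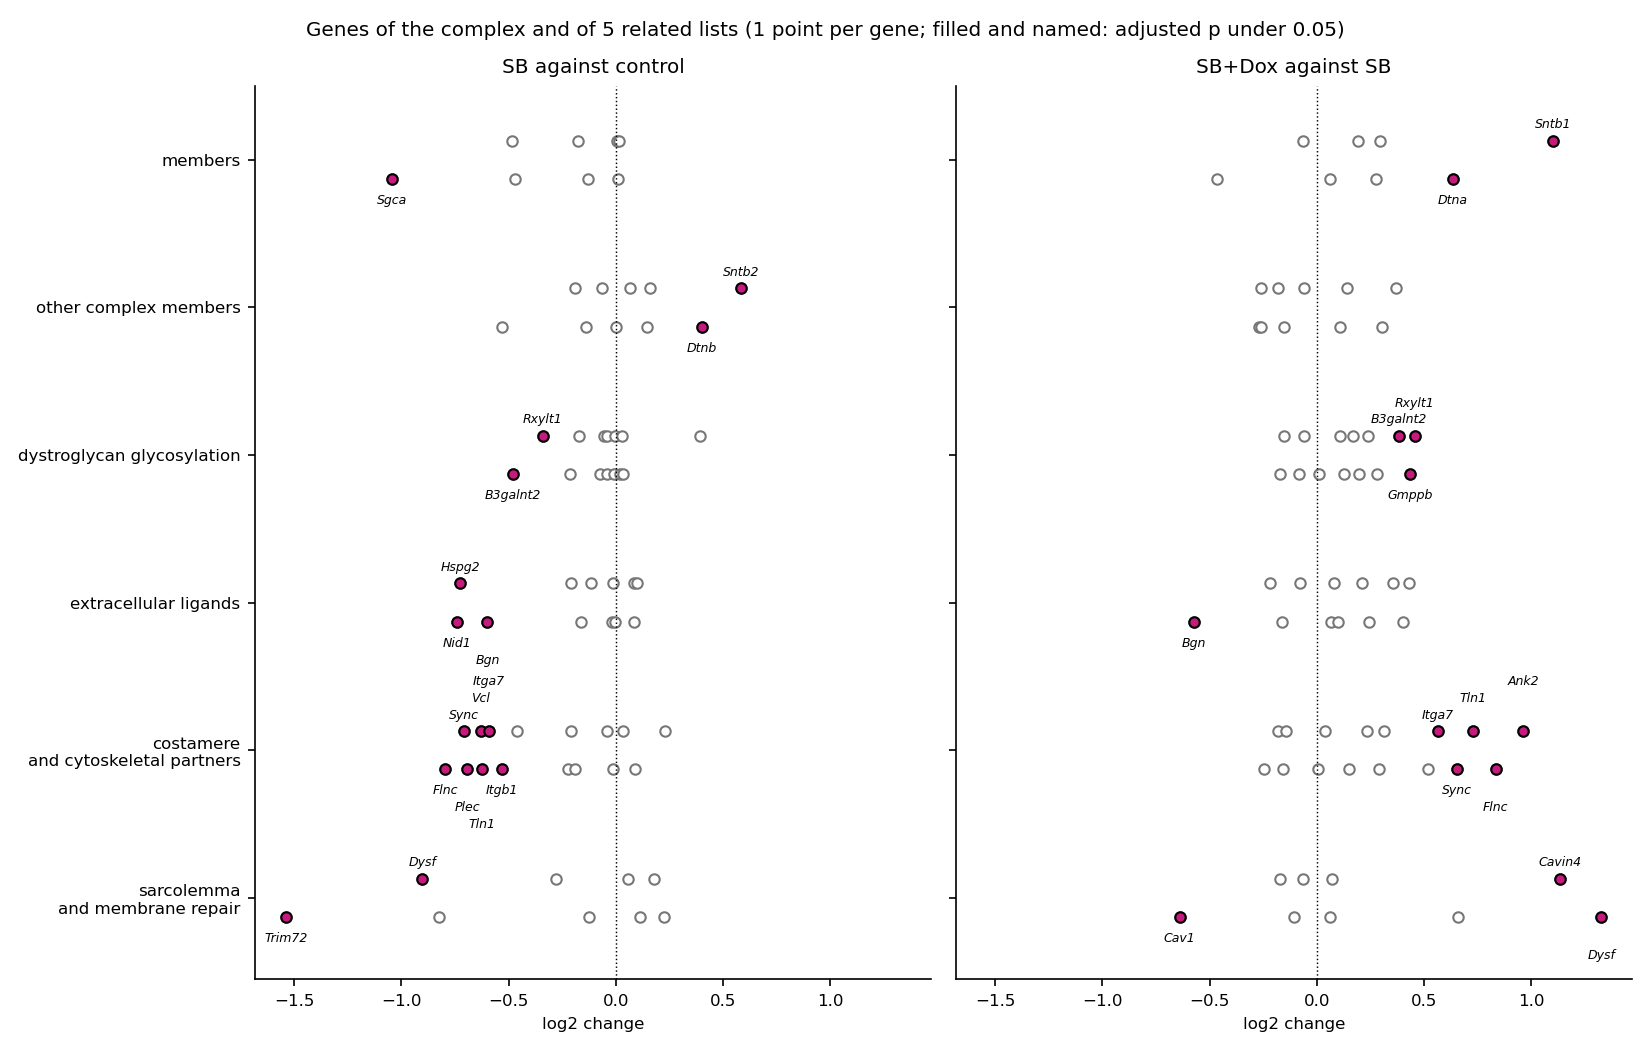
Log2 change (horizontal axis) of the 8 complex genes and of the genes of 5 related lists (vertical axis) in SB against control and in SB+Dox against SB, 1 point per gene, alternately placed on 2 levels for legibility. Filled points have an adjusted p under 0.05 and every one carries its name, more genes than the naming rule gives. Of the 16 costamere genes 7 are filled on the lower side in SB against control and 5 on the higher side in SB+Dox against SB.

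For each complex gene with a call, the genes with the most similar profile over the 12 arrays were named. Likeness was the root mean square difference between log2 values after each gene's own mean was subtracted, over 17329 genes, and it is given as a description. For Sgca, whose own values varied by 0.626 on this scale, they were S100a16 at 0.193, Cnn2 at 0.211 and Olfml3 at 0.225. For Sntb1 (own variation 0.484) they were Pkia at 0.139, Rb1 at 0.140 and Prune2 at 0.161. For Dtna (0.295) they were Rubcn at 0.101, Enah at 0.103 and Arhgap24 at 0.109. For Dag1 (0.293) they were Fkbp5 at 0.0957, Lmbrd1 at 0.105 and Atp6v1d at 0.109. For Sspn (0.197) they were Zdhhc1 at 0.0807, Kctd2 at 0.0815 and Triqk at 0.0844. None of these 15 genes belonged to the complex or to the related lists.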

How the data were processed

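RNA of 12 samples of C2i-Myog cells was measured on Affymetrix whole-transcript arrays. The deposited log2 values were made by the authors with RMA in Affymetrix Expression Console, per the submitters' processing notes, with versions not given in the sources used here. RMA as a method includes background correction and quantile normalization, so the values were tested as deposited. Of 35557 transcript clusters 21789 had exactly 1 gene symbol, 1621 had several and 12147 had none, and 21698 of the first found a partner in the gene table through Entrez identifiers. Arrays have no read depth, and 3 arrays per group limit the precision.

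All 12 arrays entered 1 linear model, with a mean for each group, in limma 3.58.1 in R 4.3.3 (statmod 1.5.0 served the alternatives), using eBayes without its trend or robust settings. Residual degrees of freedom were 8 and prior ones 6.56. It was tested on simulated data. Two-sided p-values were adjusted over the 21789 clusters within each comparison and called under 0.05. The members and gene lists were chosen with earlier results of these data known, so no list is independent evidence of its direction. The text names all members and, per related list and comparison, up to 4 called genes with the largest change. For each called member it also names the 3 genes of most similar profile, leaving out predicted, microRNA, small nucleolar and olfactory receptor genes. Some listed genes are not reported here.

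Replicate numbers come from the sample titles. After removing group means, same-numbered SB and SB+Dox arrays correlated at 0.436, 0.194 and 0.493, so the numbers were taken to pair these 2 groups, where the replicate block changed no member's call. In these 2 groups each array correlated best with its own number. That was also so between Dox and SB+Dox, at 0.088, 0.282 and 0.148. In SB+Dox against Dox the block changed no member's call either. No other pair of groups met this for every number. Alternatives were the replicate block, median centring, quantile normalization, filters at the 25th and 50th percentiles of mean signal (which removed Dmd), every cluster, a variance trend, array weights, only the groups compared, the mean over a gene's clusters, and each array left out.

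Promoter windows are from a RefSeq table on GRCm38.p6. No coordinate of the arrays was used, their build being not given in the sources used here.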

Additional observations from a re-analysis of the deposited data

Results flagged for a closer look

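Among the genes of the related lists, 4 had a called interaction in limma, as did 0.895% of all clusters. A called interaction means that the doxycycline difference with the inhibitor differed from that without it. Sntb2 had an interaction of 0.59 (adjusted p = 0.04999), a call lost under 13 of 21 alternatives, among them leaving out any array but SB replicate 3. Nid1 had 1.01 (adjusted p = 0.0194), lost under 4, namely with every cluster tested and without SB replicate 1, SB replicate 2 or SB+Dox replicate 3. Tln1 had 0.91 (adjusted p = 0.0324), lost under 11, among them leaving out Dox 1 or 2, SB 1 or 2, or SB+Dox 2 or 3. Anxa2 had 0.62 (adjusted p = 0.0431), lost under 12, among them leaving out Dox 2 or 3, SB 1 or 2, or any SB+Dox array. For Sntb2, Tln1 and Anxa2 the losses included every control array and quantile normalization, and the adjusted p reached 0.148, 0.139 and 0.136.

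For 2 complex genes the SB arrays all lay below the control mean and the SB+Dox arrays all above the Dox mean. For both genes the arrays of the groups compared overlapped, and the share of all clusters with this pattern was not computed. All 3 SB arrays of Sntb1 lay below the control mean, by -0.49 on average, and all 3 SB+Dox arrays lay above the Dox mean, by 0.38. The interaction, which is the difference between these changes, did not pass (0.86, adjusted p = 0.262). For Dtna the changes were -0.128 and 0.0809, and the interaction did not pass either (0.21, adjusted p = 0.670). No outlier test was run on the groups of 3 arrays, and each array was only left out in turn.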

How the results depend on the processing

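Of the 9 called changes of complex genes 5 were called under all 22 alternatives and 0 reversed under any: Sgca in its 3 comparisons, and Sntb1 and Dtna in SB+Dox against SB. Of the 39 changes that were not called, 5 passed under at least 1 alternative. The numbers of complex genes called moved as follows, and the causes were not tested. Lowered in SB against control, 1 became 2 with the replicate block and with array weights, through Sgcd (adjusted p = 0.0462 and 0.0456). Lowered in SB+Dox against SB, 0 became 1 with array weights, and 0 to 1 were called when single arrays were left out. Lowered in SB+Dox against Dox, 1 became 2 with quantile normalization, array weights or only the groups compared, through Dag1 (adjusted p = 0.0472, 0.0295 and 0.0302). Raised there, 0 to 1 were called when single arrays were left out. Raised in Dox against control, 2 became 1 with the replicate block (Dtna, adjusted p = 0.0505), median centring, array weights or only the groups compared, became 0 with every cluster tested, and 0 to 2 were called without single arrays. Lowered there, 0 became 1 with the 50th percentile filter or array weights, through Sspn (adjusted p = 0.0416 and 0.0249), and 0 to 1 were called without single arrays. Raised in SB+Dox against control, 1 became 2 with the replicate block or only the groups compared, through Sntb1 (adjusted p = 0.0335 and 0.0316), became 0 with every cluster tested, and 0 to 1 were called without single arrays. The replicate numbers were not shown to pair the groups of the comparisons in which the block changed a call.

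Counts over all clusters moved more. In SB against control 547 higher and 843 lower calls became 277 and 502 without SB replicate 2 and 1142 and 1652 with array weights, and in SB+Dox against SB 959 and 591 became 427 and 297 without SB+Dox replicate 3 and 1710 and 1366 with array weights. For SB+Dox against Dox, 1518 higher calls ranged from 1047 to 1951 and 747 lower calls from 526 to 1068, and for Dox against control 311 ranged from 169 to 554 and 845 from 551 to 1277. For SB+Dox against control 618 ranged from 322 to 1000 and 528 from 321 to 935. The interaction had 158 higher and 37 lower calls, which became 4 and 2 with every cluster tested, 50 and 29 with quantile normalization and 546 and 132 with array weights. No background signal was available, so a change of Dmd, which lay among the dimmest clusters, could not be bounded beyond its interval.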
